A study of Mus musculus with 18 samples.

Results

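The mitosis genes described here are 38 mouse genes whose proteins start, drive and complete the division of a cell, taken by exact gene symbol from the 40840 genes counted in liver RNA-seq of 2 mouse models of obesity. They fall into 7 roles, with 9 entry kinases, cyclins and transcription factor (Cdk1, Ccna2, Ccnb1, Ccnb2, Plk1, Aurka, Nek2, Melk and Foxm1), 3 proteins of the ubiquitin pathway around the anaphase promoting complex (Cdc20, Ube2c and Cdca3), 8 proteins of the kinetochore and spindle checkpoint (Bub1, Bub1b, Ttk, Cenpa, Cenpe, Cenpf, Ndc80 and Nuf2), 3 of the chromosomal passenger complex (Aurkb, Birc5 and Cdca8), 8 spindle motors and microtubule proteins (Kif11, Kif15, Kif2c, Kif4, Tpx2, Nusap1, Hmmr and Spag5), 5 proteins of cytokinesis (Kif20a, Kif23, Prc1, Anln and Ect2) and 2 of chromosome structure (Mki67 and Top2a). Every mouse was an ovariectomized female of the C57BL/6 background. DIO mice were wild type and ate a high-fat diet in which fat gave 45% of the calories and which held 0.2% cholesterol. The ob/ob mice lacked leptin and ate a normal diet (AIN-76A). In each model, 1 group received vehicle (a mixture of DMSO, ethanol and saline), 1 received E2 (estradiol, the main natural estrogen) at 5 µg per kg per day and 1 received PaPE-1, a pathway preferential estrogen, at 300 µg per kg per day, all by osmotic minipump for 6 weeks. There were 3 libraries per group and 18 in all, the age of the mice is not given in the sources used here, and the doses of the ligands differ, so that E2 and PaPE-1 are set side by side and not compared at equal dose. The ob/ob mice carried the leptin mutation throughout life, and diet and genotype differ together between the models.

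An adult liver divides little: most hepatocytes rest outside the cell cycle and return to it after injury or loss of tissue. In a dividing cell, cyclin A and B with Cdk1 open mitosis, Plk1 and the Aurora kinases build the spindle, the checkpoint kinases hold anaphase until every chromosome is attached, Cdc20 then starts the destruction of cyclin B, and the midzone proteins Prc1, Kif23 and Ect2 place the cleavage furrow. These genes are silent in resting cells through repression by the DREAM complex and are turned on together in G2 by MuvB with B-Myb and FOXM1, which act through the cell cycle homology region, and by NF-Y, which binds the CCAAT box. In bulk liver RNA, fewer dividing cells and less mitotic RNA per dividing cell cannot be told apart, and the dividing cells can be of any type the liver holds.

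The letters these factors read were looked for in the promoters of RefSeq (GRCm38.p6, from 250 bases before to 50 bases after a start site), where 33 of the 38 members have an entry, with 35 promoters in all. TTTGAA, the core of the cell cycle homology region, was found on either strand in 77.1% of the members' promoters, against 17.9% of all 32851 promoters of the table. CCAAT, on either strand, was found in 77.1% against 37.4%, and both together in 65.7% against 6.95%. Among 60 further mitotic genes, 48 had a promoter there, and 45.3% of their 53 promoters held both. A CCAAT match can share an end letter with a TTTGAA match, a match is not a bound site, and absence says only that these letters are not in this window. The promoters of 6 members are shown because these genes span the range, from 6 CCAAT matches in Top2a to no match of either motif in Birc5 (survivin). Capitals mark TTTGAA or its reverse complement TTCAAA and CCAAT or its reverse complement ATTGG.
Ccnb2 (GRCm38.p6, chr9:70421505-70421804, minus strand): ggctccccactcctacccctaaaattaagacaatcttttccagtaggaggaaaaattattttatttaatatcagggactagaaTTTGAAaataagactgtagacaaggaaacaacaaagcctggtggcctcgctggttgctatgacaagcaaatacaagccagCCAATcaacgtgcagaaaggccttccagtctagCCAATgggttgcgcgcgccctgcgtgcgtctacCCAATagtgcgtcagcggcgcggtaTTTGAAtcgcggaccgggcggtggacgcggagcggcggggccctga
Plk1 (GRCm38.p6, chr7:122159185-122159484, plus strand): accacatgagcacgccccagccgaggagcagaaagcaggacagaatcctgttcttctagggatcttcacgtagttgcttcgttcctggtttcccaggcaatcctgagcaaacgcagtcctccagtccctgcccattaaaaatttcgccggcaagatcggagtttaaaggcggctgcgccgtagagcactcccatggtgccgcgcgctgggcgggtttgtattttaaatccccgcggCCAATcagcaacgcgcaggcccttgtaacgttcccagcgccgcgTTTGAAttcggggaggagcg
Cdc20 (GRCm38.p6, chr4:118437294-118437593, minus strand): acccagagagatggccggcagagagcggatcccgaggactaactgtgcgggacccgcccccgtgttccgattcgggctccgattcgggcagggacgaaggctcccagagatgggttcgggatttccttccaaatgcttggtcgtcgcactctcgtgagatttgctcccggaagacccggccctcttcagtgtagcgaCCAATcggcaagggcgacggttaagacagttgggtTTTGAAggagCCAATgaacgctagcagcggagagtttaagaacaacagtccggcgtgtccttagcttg
Mki67 (GRCm38.p6, chr7:135716330-135716629, minus strand): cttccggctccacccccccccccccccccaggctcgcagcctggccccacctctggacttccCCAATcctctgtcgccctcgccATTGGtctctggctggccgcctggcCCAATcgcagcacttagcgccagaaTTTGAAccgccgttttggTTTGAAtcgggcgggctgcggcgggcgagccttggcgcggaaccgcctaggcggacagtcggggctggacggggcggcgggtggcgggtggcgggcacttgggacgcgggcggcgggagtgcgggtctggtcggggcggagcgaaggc
Top2a (GRCm38.p6, chr11:99024140-99024439, minus strand): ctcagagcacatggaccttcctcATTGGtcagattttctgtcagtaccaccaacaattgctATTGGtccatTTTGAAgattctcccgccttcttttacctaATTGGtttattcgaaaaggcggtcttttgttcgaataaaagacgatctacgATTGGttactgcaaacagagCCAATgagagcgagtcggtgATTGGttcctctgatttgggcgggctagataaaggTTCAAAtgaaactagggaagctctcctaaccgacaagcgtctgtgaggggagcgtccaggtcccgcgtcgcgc
Birc5 (GRCm38.p6, chr11:117848987-117849286, plus strand): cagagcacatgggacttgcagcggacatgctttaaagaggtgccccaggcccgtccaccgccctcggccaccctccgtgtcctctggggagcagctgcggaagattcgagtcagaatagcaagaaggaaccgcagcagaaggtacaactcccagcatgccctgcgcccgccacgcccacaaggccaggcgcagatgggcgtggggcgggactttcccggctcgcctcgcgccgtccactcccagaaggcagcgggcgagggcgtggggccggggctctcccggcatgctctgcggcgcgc
In Cdc20 and Ccnb2 a CCAAT lies upstream of a TTTGAA close to the start site. That TTTGAA lies before the start site in Cdc20 and after it in Ccnb2, and in Plk1 the TTTGAA also follows the start site. The other TTTGAA of Ccnb2 lies upstream of its CCAAT matches. Melk, Nusap1 and Nuf2 were the other members with neither motif in the window. The order of the median responses by motif content differed between the comparisons shown, which rest on different members tested in the 2 livers. With PaPE-1 against vehicle in DIO liver, the median log2 fold change was -0.97 over the 18 members tested that hold both motifs, -0.75 over the 2 that hold 1 of them and -0.43 over the 2 that hold neither. With E2 against vehicle in ob/ob liver it was -1.03 over the 21 members that hold both motifs, -1.36 over the 8 that hold 1 of them and -0.85 over the 4 that hold neither.

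Library totals ran from 16651616 to 21703791 counts in DIO liver and from 10470665 to 17021370 in ob/ob liver. The members are rare transcripts in all of them, with 298 to 924 reads per library over the 38 members in DIO liver and 962 to 3097 in ob/ob liver. A filter on low counts kept 13884 genes and 26 of the 38 members in DIO liver, and 13433 genes and 38 of the 38 members in ob/ob liver. The 12 members with too few reads to be tested in DIO liver were Ccnb1, Melk, Bub1, Ttk, Cenpe, Ndc80, Nuf2, Aurkb, Kif15, Kif2c, Kif4 and Spag5. The models were counted in separate tables and their libraries cannot be told apart from the model, so levels are compared within a model. The 7 hepatocyte markers summed to between 80611 and 155052 CPM in every library, and no pair of libraries within a group was identical. Nothing in the sources ties replicates to a shared batch, and no batch term was fitted. P-values rest on a spread between libraries that was estimated for each gene over all groups fitted together and drawn towards that of other genes. They do not measure the spread between the 3 libraries of any single group.

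A module score was taken in each library as the mean log2 CPM (reads scaled to a common library size by TMM) of the members tested, minus the mean of the vehicle libraries of the model. In DIO liver the vehicle libraries scored -0.023 (WV7), -0.14 (WV8) and 0.16 (WV9). The E2 libraries scored -0.16 (WE3), -0.17 (WE14) and -0.38 (WE18), and the PaPE-1 libraries -0.72 (WP11), -0.58 (WP12) and -1.21 (WP24). The 3 PaPE-1 libraries were thus the lowest of the 9, whereas WE3 and WE14 lay close to the vehicle library WV8. In ob/ob liver the vehicle libraries scored -0.39 (L3), 0.59 (L8) and -0.19 (L13). The E2 libraries scored -0.96 (L1), -0.97 (L12) and -0.82 (L19), and the PaPE-1 libraries -0.84 (L5), -1.24 (L6) and -0.47 (L16). All 6 treated libraries were below all 3 vehicle libraries, but L16 was below L3 by little, and the vehicle libraries differed among themselves more than the E2 libraries did (SD 0.52 against 0.084, n = 3 each).

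**Figure D1:**
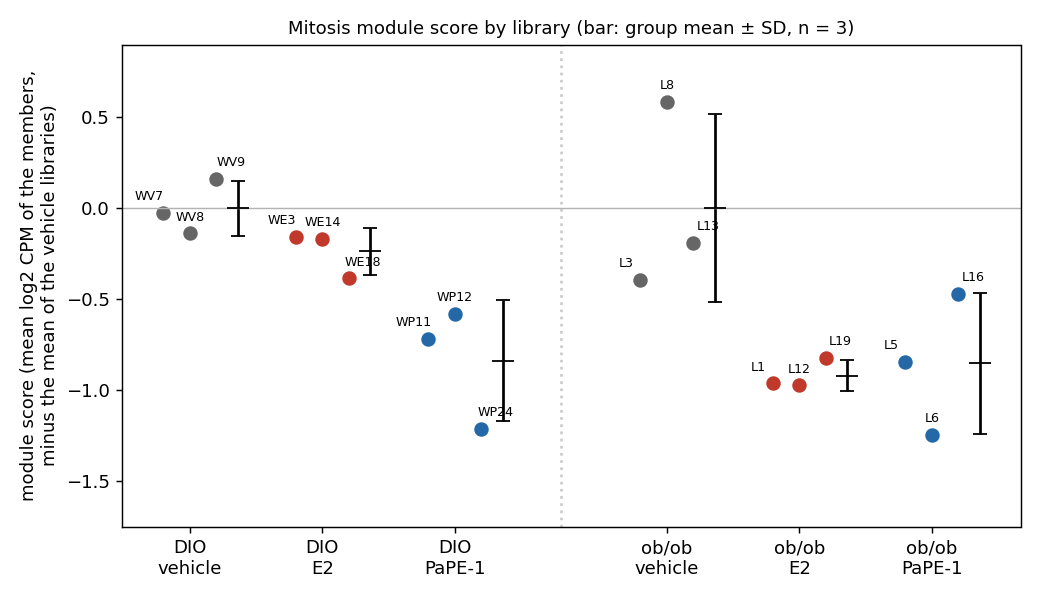
Module score of each library (y axis, mean log2 CPM of the members tested minus the vehicle mean of the model) in the 6 groups (x axis), with points for libraries and a bar for the group mean and SD (n = 3). L8 stands above the other ob/ob vehicle libraries at 0.59, the ob/ob E2 libraries lie together between -0.97 and -0.82, and WP24 at -1.21 is the lowest DIO library.

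Most of the spread in ob/ob vehicle lay in 1 library. L8 was the highest of the 3 vehicle libraries for 38 of the 38 members, whereas it was the highest for 35.2% of all genes tested. The ratio of its CPM to the mean of L3 and L13 ran from 1.29 to 3.90 over the members, with a median of 1.82. L8 is also the ob/ob library with the fewest counts (10470665). Markers of 6 cholangiocyte genes summed to 550.5 CPM in L8, against 220.2 in L3 and 125.1 in L13, those of 8 stellate cell genes to 450.4 against 306.7 and 225.6, and those of 7 hepatocyte genes to 82337 against 109466 and 104348. In the same order of L8, L3 and L13, macrophage markers summed to 356.9, 383.2 and 431.9 CPM and endothelial markers to 170.7, 172.9 and 186.7. Markers of T, NK and B cells summed to 3.14, 11.3 and 4.67 CPM, granulocyte markers to 15.6, 16.7 and 16.7 and erythroid markers to 422.7, 513.6 and 274.7. The part of these cell types in the members' levels was not tested. Against the mean of L3 and L13 alone, the E2 libraries scored -0.67, -0.68 and -0.53 and the PaPE-1 libraries -0.55, -0.95 and -0.18, still below L3 (-0.10) and L13 (0.10). Most counts and the medians of the ob/ob comparisons against vehicle are given below with and without L8, and so is each called member described that lost its call without it. Counts by rank of p and of groups that do not overlap are given only with L8 included.

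**Figure D2:**
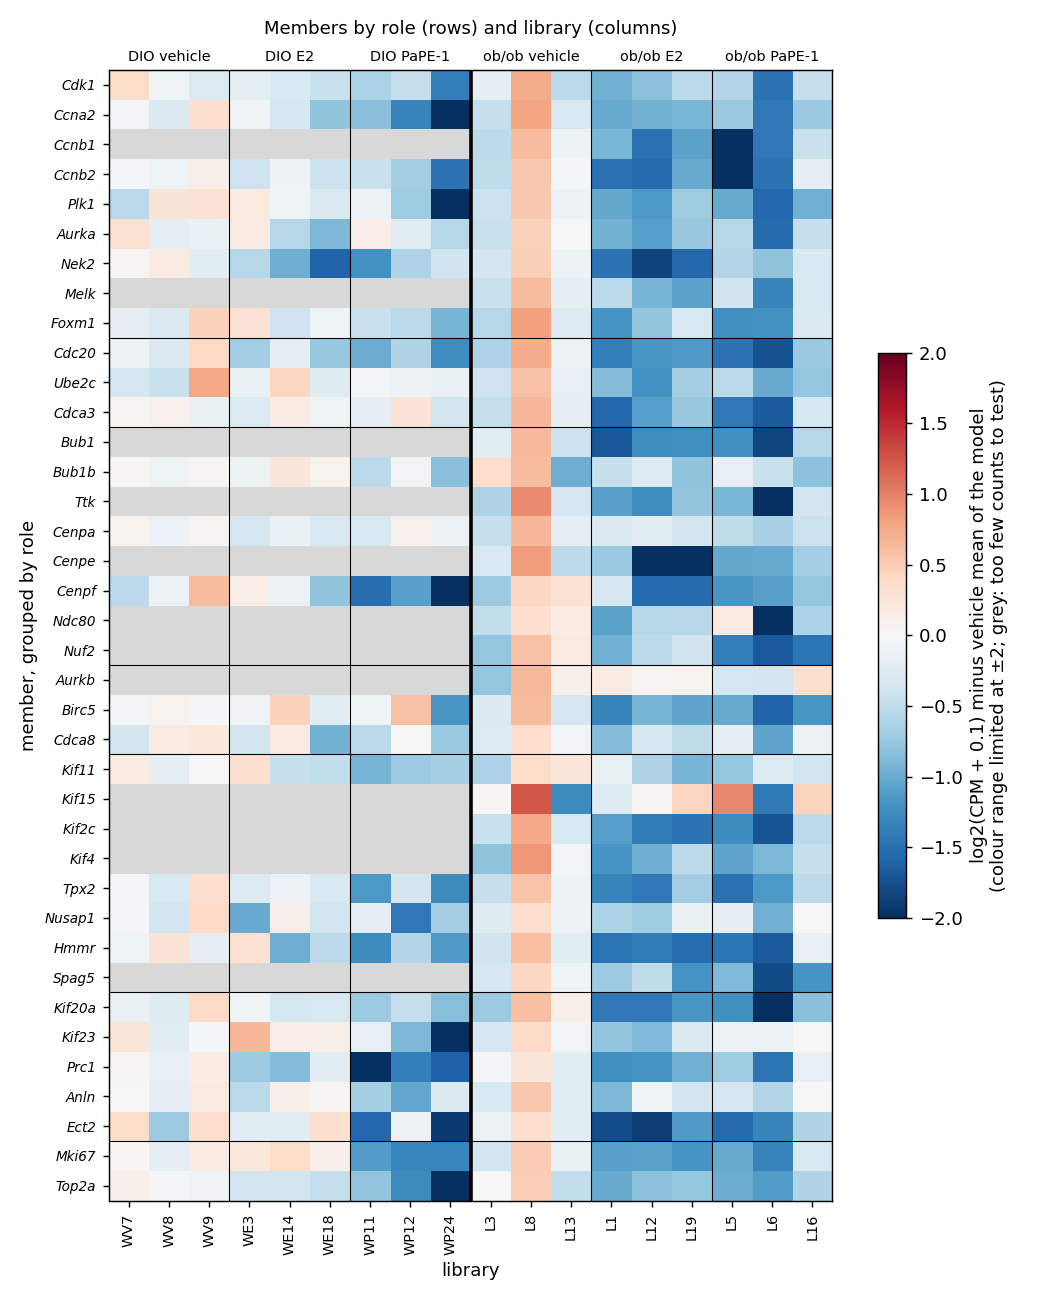
Each row is 1 of the 38 members, ordered by role with lines between roles, and each column a library, coloured by log2(CPM + 0.1) minus the vehicle mean of the same model (blue lower, red higher, colours limited at 2 in either direction, grey where reads of a member were too few for a test in DIO liver). The L8 column is red throughout, the E2 and PaPE-1 columns of ob/ob liver are blue for nearly every role, and in DIO liver the blue is mostly in the PaPE-1 columns, above all WP24.

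With PaPE-1 in DIO liver, the members lay below vehicle but none passed the threshold. The 26 members tested all had log2 fold changes below 0, from -2.24 to -0.025, with a median of -0.85, where 52.9% of all genes tested were below 0 and their median was -0.029. Since a rare gene may pass the filter through its vehicle reads alone, the fit was repeated without a filter: all 38 members were below 0 there too, with a median of -0.85. At an adjusted p of 0.05, edgeR called 0 members, and 0% of all genes were called lower. At an unadjusted p of 0.05, 14 members were lower and 0 higher, against 9.68% of all genes lower. DESeq2 called 1 member at its adjusted p and limma voom 0. In edgeR, Mki67, Prc1 and Top2a were called in the fit without a filter, against 0.591% of genes called lower in that fit. Leaving out WE3 gave 3 members called against 1.59% of genes, leaving out WE14 gave 2 against 0.496%, and leaving out WP12 gave 1 against 0.17%. For DESeq2 the share of genes called lower was 1.64%. By a rule that asks for a change of more than 2 times together with an unadjusted p under 0.05, 8 members were lower, against 1.58% of genes. The 14 members at the unadjusted p became 8 without WP24, 8 without WV7 and 7 without WV9, against 7.99%, 7.29% and 7.3% of genes. The 8 members of the stricter rule became 5 without WP24 or WV9, where the shares of all genes by that rule are not given here. For 15 members every PaPE-1 library lay below every vehicle library, against 15.8% of genes.

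Mki67 (GRCm39, chr7:135291513-135318286, minus strand) encodes the proliferation marker Ki-67, which coats mitotic chromosomes. It read 3.59, 3.06 and 3.88 CPM in the vehicle libraries, 4.07, 4.53 and 3.75 in the E2 libraries and 1.55, 1.36 and 1.35 in the PaPE-1 libraries. The PaPE-1 values were close together and did not overlap either other group. Its log2 fold change against vehicle was -1.30 (SE 0.22, adjusted p = 0.0707), the fourth smallest p of all genes in this comparison. Prc1, which bundles the microtubules of the spindle midzone, read 1.05, 0.917 and 1.16 CPM with vehicle, 0.588, 0.525 and 0.874 with E2 and 0.119, 0.340 and 0.270 with PaPE-1. No PaPE-1 library reached the lowest library of either other group, and the log2 fold change against vehicle was -2.05 (SE 0.43, adjusted p = 0.0707). For Top2a, the topoisomerase that untangles sister chromatids, vehicle libraries read 2.44, 2.18 and 2.13 CPM, E2 libraries 1.72, 1.72 and 1.59 and PaPE-1 libraries 1.25, 0.875 and 0.473. The 3 groups were ordered without overlap, and PaPE-1 differed from vehicle by -1.36 (SE 0.32, adjusted p = 0.0714). Cyclin A2, encoded by Ccna2, read 1.20, 1.0 and 1.60 CPM with vehicle and 0.657, 0.438 and 0.135 with PaPE-1, which differed by -1.58 on the log2 scale (SE 0.45, adjusted p = 0.0995). These 4 genes had the smallest p of the members, and leaving out WP24, the library with the lowest score, left their log2 fold changes at -1.27, -2.10, -1.09 and -1.21.

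The remaining mitotic kinases and their targets were spread more widely. Cdk1, the kinase of mitotic entry, was at 2.25, 1.62 and 1.41 CPM with vehicle and 1.07, 1.22 and 0.608 with PaPE-1, and Ccnb2, a B-type cyclin, at 0.910, 0.873 and 1.02 against 0.657, 0.535 and 0.270. Neither pair of groups overlapped, with log2 fold changes of -0.84 (SE 0.32) and -0.91 (SE 0.37) and adjusted p of 0.174 and 0.193. Kif20a, a kinesin of the midzone, was at -0.77 (SE 0.34, adjusted p = 0.215). Plk1 rested on few reads: 0.287, 0.568 and 0.582 CPM with vehicle and 0.418, 0.243 and 0 with PaPE-1, where the 0 in WP24 allows up to 0.203 CPM at 3 counts. Its interval ran from -2.46 to 0.35. Ttk and Cenpf were also at 0 reads in WP24. Birc5, by contrast, hardly moved, at 1.29, 1.40 and 1.31 CPM with vehicle and 1.25, 2.04 and 0.540 with PaPE-1, with an interval from -0.89 to 0.84 around -0.025. By role, the medians ran from -1.33 for the 2 genes of chromosome structure and -1.03 for the 5 of cytokinesis to -0.23 for both the 3 of the ubiquitin pathway and the 2 of the chromosomal passenger complex that were tested. Beside these values, 5 of 8 stellate cell markers were lower and 1 higher at an unadjusted p of 0.05, and their summed level was 237.2 to 311.9 CPM with vehicle and 138.0 to 200.3 with PaPE-1. Of 7 hepatocyte markers 4 were higher at an unadjusted p of 0.05, and their summed level was 80611 to 91335 CPM with vehicle and 103022 to 123774 with PaPE-1. Over all 13884 genes tested, 1344 were lower and 1585 higher at that p. Of 9 endothelial markers 1 was lower and 1 higher at that p, and of 10 macrophage and 6 erythroid markers 1 each was higher. Granulocyte, cholangiocyte and T, NK and B cell markers gave 0 either way. The part of these cell types in the members' levels was not tested.

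E2 in DIO liver gave smaller differences. Of the 26 members tested, 22 were below 0, and the median log2 fold change was -0.28. edgeR called 0 members, with 0% of genes called lower, and 1 member was lower at an unadjusted p of 0.05, against 2.5% of genes; DESeq2 and limma voom called 0. For 5 members every E2 library was below every vehicle library, against 5.52% of genes. The member with the smallest p was Nek2, the kinase that separates centrosomes, at 2.15, 2.36 and 1.75 CPM with vehicle and 1.36, 1.0 and 0.617 with E2. Its groups did not overlap, and they differed by -1.06 on the log2 scale (SE 0.34, adjusted p = 0.838). Prc1 (-0.66, SE 0.36), Cdc20, the activator of the anaphase promoting complex (-0.61, SE 0.37), and Top2a (-0.42, SE 0.29) followed, all with an adjusted p of 1. Mki67 was at 0.23 (SE 0.20), with an interval of -0.20 to 0.67. Of the other fixed members, Cdk1 was at -0.36, Ccnb2 at -0.34 and Kif20a at -0.29, while Plk1 at -0.10 and Birc5 at 0.091 were closer to 0. Without the vehicle library WV9, the median over the members tested was -0.14. Without a filter, 31 of the 38 members were below 0.

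Mki67 was the 1 member that differed between the ligands in DIO liver. Its log2 fold change with PaPE-1 against E2 was -1.53 (SE 0.22, adjusted p = 0.0325), in a comparison where 0.0144% of genes were called lower. That call was lost under limma voom, with a length trend removed, in a fit to these 2 groups alone and when any 1 of 8 of the 9 libraries was left out (all but WE14). At an unadjusted p of 0.05, 6 of the 26 members were lower, against 8.62% of genes, and for 12 members every PaPE-1 library was below every E2 library, against 8.27%. Without WE3, 3 members in place of 6 were lower at that p, against 4.39% of genes. After Mki67, the smallest p were those of Prc1 (-1.39, SE 0.45, adjusted p = 0.196), Top2a (-0.93, SE 0.32, adjusted p = 0.205) and Kif23 (-1.37, SE 0.51, adjusted p = 0.222). Kif23, the motor of the centralspindlin complex, read 1.76, 1.19 and 1.18 CPM with E2 and 0.955, 0.535 and 0.0675 with PaPE-1, the lowest again in WP24. Aurka, Nek2, Cdca3 and Cenpa were the 4 members above 0.

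**Figure D3:**
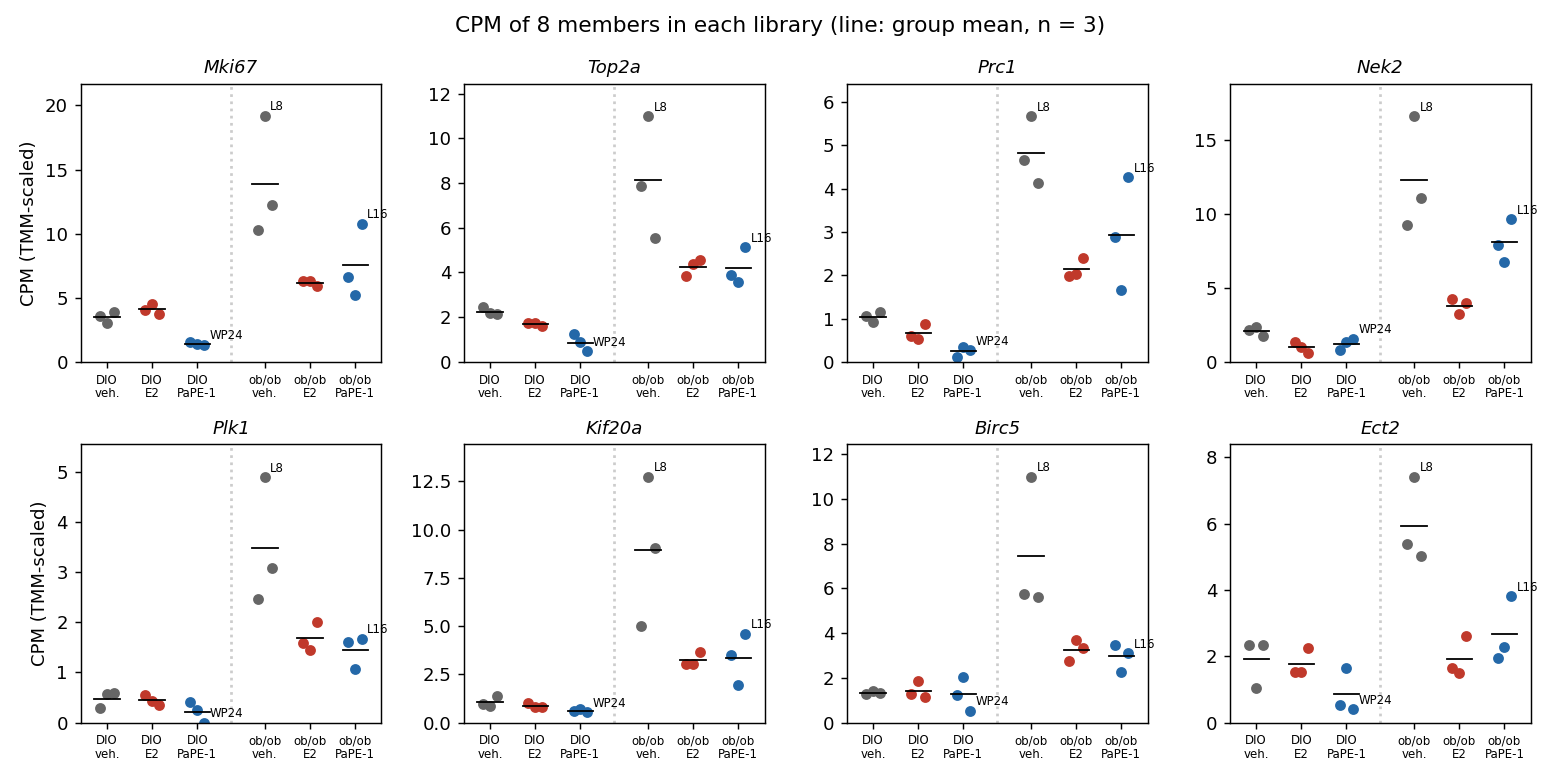
CPM (y axis, scaled by TMM, axis from 0) of 8 members in each library of the 6 groups (x axis), with points for libraries and a line for the group mean (n = 3). In DIO liver the PaPE-1 points of Mki67, Top2a and Prc1 lie below all others, while those of Birc5 are spread around vehicle, and in ob/ob liver L8 is the highest point in every panel and the E2 points of Nek2 lie below its PaPE-1 points.

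In ob/ob liver, members of every role were called lower with E2, but without L8 the calls left out the kinetochore and spindle roles. Of the 38 members, 37 had log2 fold changes below 0, with a median of -1.05 where the median of all genes was 0.0073. At an adjusted p of 0.05, 18 members fell and 0 rose, against 12.3% of genes that were called lower. By the rule of fold and unadjusted p, 20 members were lower, against 2.61%, and 9 without L8, against 2.04%. For 25 members every E2 library was below every vehicle library, against 20.8%. Those that fell were 5 of the 9 entry factors (Nek2, Ccna2, Ccnb1, Plk1 and Aurka), 2 of 3 of the ubiquitin pathway (Cdc20 and Ube2c), 2 of 8 kinetochore genes (Bub1 and Cenpe), 1 of 3 passenger genes (Birc5), 3 of 8 spindle genes (Hmmr, Tpx2 and Kif2c), 3 of 5 cytokinesis genes (Ect2, Kif20a and Prc1) and both genes of chromosome structure. Aurkb, the kinase of the passenger complex, was the member not below 0, at 0.0037 (SE 0.37). Without L8 the median was -0.65, 35 of the members were below 0 and 7 were called, namely Nek2, Ect2, Mki67, Kif20a, Birc5, Cdc20 and Prc1, where 8.94% of genes were called lower. Without the E2 library L12, the median was -0.98 and 3 members (Nek2, Ect2 and Birc5) were called, against 3.18% of genes. Without the E2 library L19 the median was -1.11 and 8 were called, against 5.95%.

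Nek2 (GRCm39, chr1:191552487-191565161, plus strand) had the smallest p of the members. It read 9.21, 16.6 and 11.1 CPM in the vehicle libraries L3, L8 and L13, 4.23, 3.22 and 3.95 in the E2 libraries and 7.92, 6.75 and 9.63 in the PaPE-1 libraries. The E2 libraries were below all others, and Nek2 fell by 1.68 on the log2 scale (SE 0.23, adjusted p = 0.00163). Ect2, the exchange factor that activates RhoA at the cleavage furrow, read 5.38, 7.42 and 5.02 CPM with vehicle and 1.65, 1.51 and 2.61 with E2. Its L8 value was not far from the other vehicle libraries, and the log2 fold change was -1.61 (SE 0.30, adjusted p = 0.00492), or -1.43 without L8. For Mki67, vehicle libraries read 10.2, 19.2 and 12.2 CPM and E2 libraries 6.27, 6.30 and 5.89. The E2 livers were nearly equal, and Mki67 fell by 1.16 (SE 0.27, adjusted p = 0.0134). Kif20a read 4.99, 12.7 and 9.04 CPM with vehicle and 3.04, 3.02 and 3.68 with E2, so that the vehicle spread was wide but no library overlapped (-1.45, SE 0.34, adjusted p = 0.0137).

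Birc5, an inhibitor of apoptosis that also anchors the passenger complex at centromeres, read 5.77, 11 and 5.61 CPM with vehicle and 2.77, 3.68 and 3.34 with E2. L3 and L13 were close to each other and above every E2 library, and Birc5 fell by 1.17 (SE 0.28, adjusted p = 0.0114). Prc1 read 4.67, 5.67 and 4.14 CPM with vehicle and 1.98, 2.04 and 2.41 with E2. In this gene L8 was close to the other vehicle libraries, and the fall was of 1.16 (SE 0.30, adjusted p = 0.0163). Cdc20 read 6.36, 16.5 and 9.10 CPM with vehicle and 3.76, 4.33 and 4.41 with E2 (-1.34, SE 0.34, adjusted p = 0.0197). Top2a fell by 0.92 (SE 0.24, adjusted p = 0.0185), from 7.85, 11 and 5.56 CPM to 3.83, 4.40 and 4.55, and without L8 it was at -0.65 with an adjusted p of 0.0745. Cenpe, a kinesin that carries chromosomes to the spindle equator, read 2.27, 5.15 and 1.95 CPM with vehicle and 1.65, 0.525 and 0.602 with E2, and had the largest fall of the members, at -1.71 (SE 0.47, adjusted p = 0.0211). Hmmr (-1.57), Tpx2 (-1.20) and Ube2c (-0.97) complete the 12 members of smallest p, with adjusted p from 0.0179 to 0.0222. Without L8 these last 4 genes did not pass, with Cenpe at -1.18 (adjusted p = 0.0852), Hmmr at -1.22 (0.0642), Tpx2 at -0.87 (0.0847) and Ube2c at -0.63 (0.0919).

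Among the cyclins and kinases, Ccnb1 read 2.79, 6.28 and 3.78 CPM with vehicle and 2.11, 1.38 and 1.87 with E2, and Plk1 read 2.46, 4.89 and 3.07 against 1.58, 1.44 and 2.01. Both groups were apart in each gene, with falls of 1.24 (SE 0.41, adjusted p = 0.0442) and 1.03 (SE 0.31, adjusted p = 0.0320). Neither passed without L8, where Ccnb1 was at -0.88 (adjusted p = 0.153) and Plk1 at -0.72 (adjusted p = 0.126). Ccna2, Aurka, Bub1 and Kif2c, called with L8, had adjusted p of 0.112, 0.132, 0.136 and 0.108 without it. Ccnb2 was apart as well, at 6.03, 12.6 and 8.33 CPM against 2.97, 2.89 and 4.21, but did not pass (-1.40, SE 0.46, adjusted p = 0.0536), and Cdk1 overlapped, with L19 at 4.95 and L13 at 4.85 CPM (-0.85, SE 0.34, adjusted p = 0.0879). Foxm1, the transcription factor of G2 genes, was at -0.85 (SE 0.41) with overlapping groups.

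**Figure D4:**
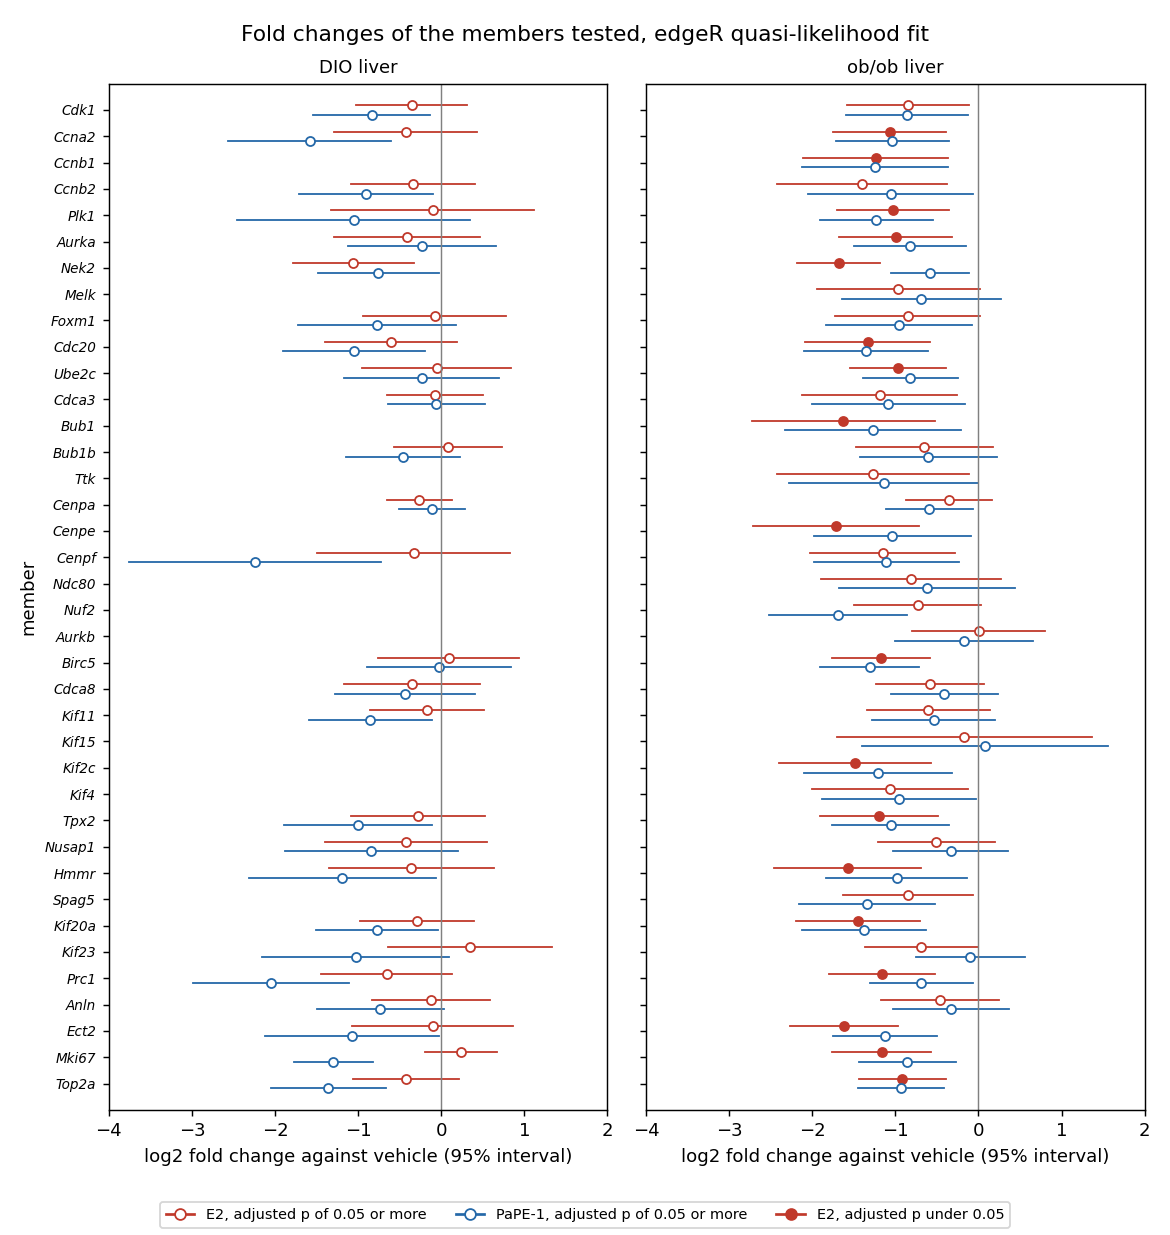
Log2 fold change against vehicle (x axis) of each member tested (y axis) with its 95% interval, for E2 (red) and PaPE-1 (blue) in DIO liver (left, 26 members) and ob/ob liver (right, 38 members). Filled points have an adjusted p under 0.05 in edgeR, which holds for 18 members with E2 in ob/ob liver, whereas the PaPE-1 points are all open, with 37 of 38 below 0 in that liver.

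PaPE-1 in ob/ob liver gave differences against the same vehicle libraries that were of the same order, but none passed. Of the 38 members, 37 were below 0, and the median was -0.95. edgeR called 0 members with 0% of genes called lower, and limma voom and DESeq2 called 0 members as well. At an unadjusted p of 0.05, 28 members were lower and 0 higher, against 1.65% of genes, and these made up 28 of the 222 lower genes. By the rule of fold and unadjusted p, 17 were lower, against 0.469%, and 3 without L8, against 0.351%. That count was 9 without L6 and 10 without L5, where the shares of all genes by this rule are not given here. For 16 every PaPE-1 library was below every vehicle library, against 2.9%. Of the 12 genes with the smallest p of the whole comparison, 6 were members, namely Birc5, Nuf2, Kif20a, Ect2, Plk1 and Top2a. This count by rank includes L8 and was not computed without it. Without L8 the median was -0.55, with 35 members below 0, and 11 instead of 28 members were lower at an unadjusted p of 0.05, against 1.63% of genes. Without the PaPE-1 library L6 the median was -0.79 and 15 members were lower at that p, against 1.23%, and without L16 the median was -1.17.

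Birc5 read 3.49, 2.28 and 3.12 CPM with PaPE-1, below its vehicle libraries of 5.77, 11 and 5.61. The log2 fold change was -1.31 (SE 0.28, interval -1.90 to -0.71), and -0.93 without L8. Nuf2, which links kinetochores to microtubules, read 0.872, 0.683 and 0.808 CPM with PaPE-1 and 1.36, 3.67 and 2.78 with vehicle (-1.69, SE 0.39), and its E2 libraries, at 1.19, 1.64 and 1.81, overlapped vehicle but not PaPE-1. Plk1 read 1.61, 1.06 and 1.67 CPM, below each vehicle library (-1.23, SE 0.32), and Kif20a 3.49, 1.97 and 4.61 (-1.38, SE 0.34). Ect2 read 1.95, 2.28 and 3.81 CPM (-1.12, SE 0.29), and Top2a 3.89, 3.56 and 5.13 (-0.93, SE 0.24). In these genes L16 was the PaPE-1 library closest to vehicle, Birc5 and Nuf2 excepted. Mki67 overlapped vehicle for that reason, with L16 at 10.8 CPM above L3 at 10.2, while L5 and L6 were at 6.64 and 5.23 (-0.86, SE 0.27). Ccnb1 was at 0.872, 1.44 and 2.94 CPM (-1.24, SE 0.41), Ccnb2 at 2.01, 3.03 and 7.56 (-1.06, SE 0.44) and Cdk1 at 4.70, 2.50 and 5.13 (-0.87, SE 0.34), with L16 the highest in each. Over the 38 members, L16 was the highest PaPE-1 library for 30 and L6 the lowest for 27. The adjusted p was 1 for all 10 members described. Without L8 the log2 fold changes were smaller in size, from -1.39 for Nuf2 and -1.05 for Kif20a to -0.56 for Mki67 and -0.41 for Cdk1.

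Blood cell markers moved in these livers, and granulocyte and erythroid precursors divide. The lists used here mix markers of precursors and of mature cells, so their sums do not measure dividing precursors. With E2, 8 of the 10 granulocyte markers tested rose, from summed levels of 15.6 to 16.7 CPM over 11 markers with vehicle to 105.5 (L1), 383.5 (L12) and 219.9 (L19). The module scores of these libraries were -0.96 (L1), -0.97 (L12) and -0.82 (L19). With PaPE-1, 12 erythroid markers summed to 2688 CPM in L5, 1825 in L6 and 379.3 in L16, against 274.7 to 513.6 with vehicle. The module scores there were -0.84 (L5), -1.24 (L6) and -0.47 (L16). Of 9 endothelial markers 8 rose with E2, of 7 hepatocyte markers 5 rose and 1 fell, and of 10 macrophage markers 4 rose and 1 fell. Over all genes tested, 9.81% were called higher and 12.3% lower with E2 in this liver. Markers of T, NK and B cells summed to 10.4 to 16.3 CPM with E2, against 3.14 to 11.3 with vehicle. For stellate cell markers the sums were 247.5 to 316.3 against 225.6 to 450.4, and for cholangiocyte markers 161.1 to 194.9 against 125.1 to 550.5. The part of shifts between cell types in the members' levels was not tested.

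Set side by side in ob/ob liver, the ligands differed in 1 member. Nek2 was higher in the PaPE-1 livers, with a difference from E2 of 1.10 (SE 0.23, adjusted p = 0.00934) on the log2 scale and no overlap between the groups, in a comparison where 10% of genes were called higher. The call was lost without the E2 library L12. The median over the members was 0.13, with 11 below 0. Nuf2 lay the other way, at -0.96 (SE 0.40, adjusted p = 0.110). For the other fixed members the differences were small against their intervals, such as -0.013 for Top2a (interval -0.55 to 0.53), 0.068 for Kif20a (-0.72 to 0.85) and 0.31 for Mki67 (-0.30 to 0.92). Without the PaPE-1 library L16 the median was -0.11, and without L6 it was 0.30.

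Whether a ligand acted differently in the models was tested as an interaction over the 18 libraries, in which values below 0 mean a lower effect in ob/ob than in DIO liver. The 38 members in this fit include those with too few reads to be tested in DIO liver alone, Nuf2 among them, where 26 were tested. Their DIO effects rest on few reads, and counts and medians over the 26 alone were not computed. For E2, 36 of the 38 members were below 0, with a median of -0.77. Without L8 the median was -0.38, with 33 below 0. edgeR called 0 members, against 0.0141% of genes. At an unadjusted p under 0.05 there were 5 members, a smaller share than the 16.9% of all genes. DESeq2 called 1 and limma voom 0, and edgeR called 1 without WE14, where 3.69% of genes were called lower. Without L8, 2 in place of 5 members had an unadjusted p under 0.05, against 14.5% of genes, and without L3 the number was 8, against 15.6%. The smallest p was that of Mki67 (-1.41, SE 0.34, adjusted p = 0.0851), which was at 0.23 against vehicle in DIO liver and at -1.16 in ob/ob liver. Ect2 (-1.53, SE 0.56), Birc5 (-1.28, SE 0.49) and Kif20a (-1.17, SE 0.49) followed, with adjusted p from 0.183 to 0.227. For PaPE-1 the median was -0.073, with 21 of 38 below 0, and its direction depended on the libraries used. Without L8 it was 0.31, with 11 of 38 below 0, and when other libraries were left out it lay between -0.30 (without WP24) and 0.18 (without WP12). edgeR, DESeq2 and limma voom called 0 members, where edgeR called 0% of genes. At an unadjusted p under 0.05 there were 4 members, a smaller share than the 12.1% of all genes. These were Birc5 (-1.31, SE 0.50), Nuf2 (-1.68, SE 0.69) and Cdca3 (-1.06, SE 0.50) below 0, and Prc1 (1.33, SE 0.52) above 0. Their adjusted p ran from 0.311 to 0.403, so no model difference was called for any of them. Without L8, 0 members in place of 3 were lower at the unadjusted p and 3 in place of 1 were higher, where the shares of all genes are not given here.

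**Figure D5:**
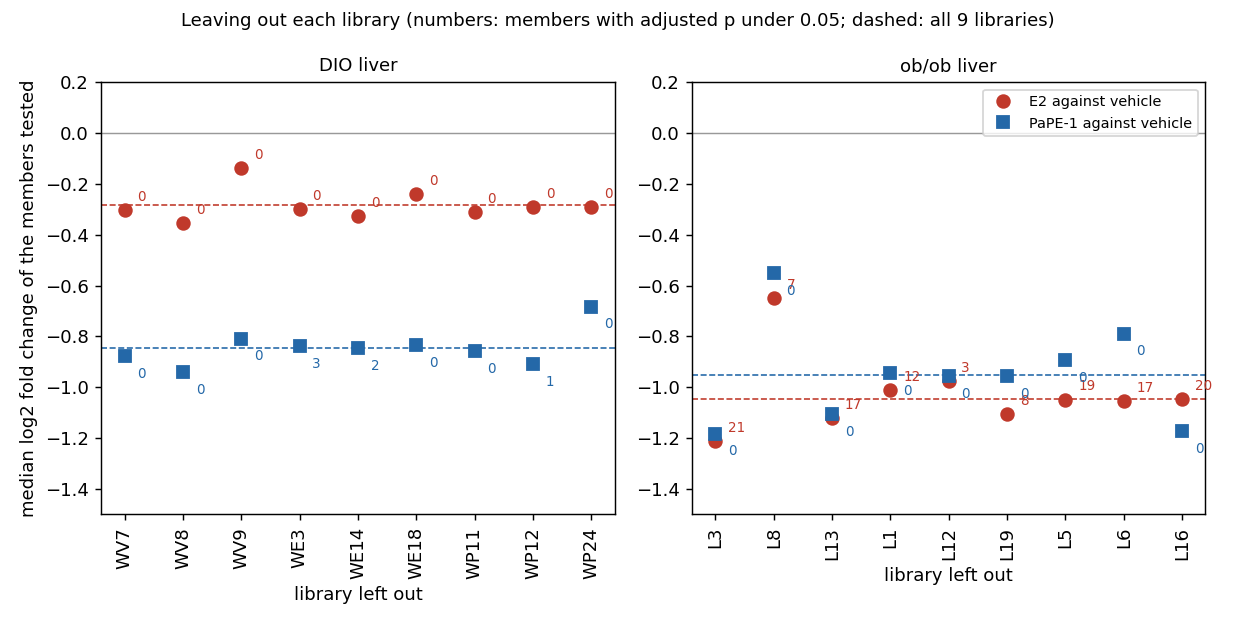
Median log2 fold change against vehicle of the members tested (y axis) when each library in turn (x axis) was left out, for E2 (red circles) and PaPE-1 (blue squares), with dashed lines at the value from all 9 libraries and the number of members called by edgeR beside each point. In ob/ob liver L8 moves both medians closest to 0, and the number called with E2 is between 3 and 21. The numbers stand without the share of all genes called in each fit.

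Other genes of division were read from lists of neighbouring steps. Their counts stand beside 12.3% of all genes called lower and 9.81% called higher with E2 in ob/ob liver. Of 60 further mitotic genes, 56 were tested in ob/ob liver, where E2 lowered 20 (35.7%) and raised 1, with a median of -0.75. Among them were Arhgap11a, which acts on RhoA (-1.63, SE 0.26, adjusted p = 0.00265), the importin Kpna2 (-0.67, SE 0.14, adjusted p = 0.00663) and the condensin subunits Smc4 (-0.89, SE 0.19, adjusted p = 0.00848) and Smc2 (-1.30, SE 0.30, adjusted p = 0.0108). In DIO liver with PaPE-1, 29 of the 36 tested were below 0 with a median of -0.31, and edgeR called 0. Of 27 S phase genes, which copy DNA, 2 (7.41%, below the share of all genes) were lower with E2 in ob/ob liver, the licensing factor Cdt1 (-0.83, SE 0.24, adjusted p = 0.0244) and the helicase subunit Mcm6 (-1.17, SE 0.36, adjusted p = 0.0477), with a median of -0.51. Of 11 G1 cyclins and kinases 4 (36.4%) were lower, the E cyclins Ccne1 (-1.74, SE 0.35, adjusted p = 0.00611) and Ccne2 (-2.09, SE 0.42, adjusted p = 0.00616), Cdk6 (-0.51, SE 0.13, adjusted p = 0.0147) and Myc (-0.94, SE 0.26, adjusted p = 0.0256).

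Among 16 tested genes of the DREAM complex and E2F family, E2 in ob/ob liver lowered 4 (25%) and raised 1. E2f3 (-0.78, SE 0.14, adjusted p = 0.00435), Tfdp1 (-0.65, SE 0.12, adjusted p = 0.00503) and E2f1 (-0.99, SE 0.25, adjusted p = 0.0160), which activate genes of DNA synthesis, fell, and the DREAM subunit Lin37 rose (0.53, SE 0.18, adjusted p = 0.0439). Of 10 tested inhibitors of the cycle 2 (20%) fell, Wee1, the kinase that holds Cdk1 inactive (-1.38, SE 0.27, adjusted p = 0.00830), and Ccng1 (-0.49, SE 0.16, adjusted p = 0.0364). With PaPE-1 in ob/ob liver edgeR called 0 genes of all these lists, and the medians were -0.57 for the further mitotic genes, -0.37 for S phase, -0.051 for DREAM and E2F, -0.033 for G1 and 0.12 for the inhibitors. Each of these lists shares the vehicle libraries, L8 among them, with the members, and their counts without L8 were not computed.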

How the data were processed

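Liver RNA was sequenced in 18 libraries, 3 for each of 6 groups. The deposited values used here are raw read counts per gene, made by the authors, per the labels and the submitters' processing notes, with CASAVA 1.8.2, STAR 2.7.6a and featureCounts 2.0.0 on RefSeq genes of GRCm39. The order and role of tools are as those notes name them, and the paper's methods name other software. The authors' tables of comparisons, which hold fold changes, p-values and normalized counts from DESeq2, were not used, and 0 sample columns were left out of the count tables. Totals ran from 10470665 to 21703791 counts per library, and the limit given for a 0 (3 counts) covers counting error only, while intervals of fold changes come from the fits and include the spread between libraries.

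Each model was fitted on its own 9 libraries with edgeR 4.0.16 (R 4.3.3; filterByExpr, TMM, robust quasi-likelihood, 1 mean per group), with Benjamini-Hochberg adjustment over all genes tested and a threshold of 0.05. Interactions used all 18 libraries. Scores used log2 CPM with a prior count of 2. The steps were tested on simulated data. Alternatives were limma 3.58.1 (voom), DESeq2 1.42.0, its size factors in edgeR, no filter, a minimum of 10 counts, removal of a length trend, fits to the compared groups alone and leaving out each library. Members and gene lists were chosen with earlier results of these data known. Genes named were 8 fixed members (Mki67, Top2a, Plk1, Kif20a, Birc5, Ccnb1, Ccnb2 and Cdk1), the 4 of smallest p per comparison, called members up to 12 per comparison, and up to 4 genes per companion list. Others were named to account for a count or a library, after their values were seen.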

Additional observations from a re-analysis of the deposited data

How the results depend on the processing

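Reads on these rare transcripts, and 3 libraries per group, limit what can be called. No paired analysis was possible because the replicate numbers were given in accession order and pair no libraries. With PaPE-1 against vehicle in DIO liver, 0 members were called, but 1 by DESeq2, 3 without a filter, 3 in a fit to the compared groups alone, and 0 to 3 when each library in turn was left out. With PaPE-1 against E2 in DIO liver, the 1 member called became 0 under limma voom, with the length trend removed and in the compared groups alone, and 0 to 1 when libraries were left out. In ob/ob liver, PaPE-1 against vehicle gave 1 member without a filter, E2 against vehicle gave 3 to 21 members when libraries were left out, and PaPE-1 against E2 gave 0 to 1. The interaction for E2 gave 1 member by DESeq2, 1 without a filter and 0 to 1 when libraries were left out. These ranges stand without the shares of all genes called, so alone they do not tell a change in the members from a change over all genes. With library totals in place of TMM, the module score was -1.11 in L1 and -1.07 in L12. Of the values of single named members, 1115 kept direction and side of the threshold, 44 lost it, 26 gained it and 28 changed sign.

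The changes of sign were in differences that did not pass the threshold. For Birc5 in DIO liver, PaPE-1 against vehicle was 0.028 with the length trend removed and -0.55 to 0.32 when libraries were left out, E2 against vehicle was -0.15 to 0.22 and PaPE-1 against E2 was -0.64 to 0.23. For Plk1, E2 against vehicle in DIO liver was -0.36 to 0.050. For PaPE-1 against E2 in ob/ob liver, leaving out libraries gave -0.046 to 0.52 for Mki67, -0.19 to 0.10 for Top2a, -0.24 to 0.34 for Kif20a, -0.26 to 0.026 for Birc5, -0.64 to 0.32 for Ccnb1, -0.42 to 0.68 for Ccnb2 and -0.21 to 0.24 for Cdk1. Without a filter, Top2a was at 0.0090, Ccnb1 at 0.018 and Cdk1 at 0.0071, and with the length trend removed Ccnb1 was at 0.12. The causes were not tested.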
